A study of Xenopus tropicalis with 12 samples.

Results

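The genes described here encode the lysosome's acid proteases, its proton pump and its membrane glycoproteins, together with the machinery of autophagy. They were taken by gene symbol from a table of read counts for liver RNA: the symbols beginning with atg, cts, lamp, atp6v, atp6ap, gabarap or map1lc3, and sqstm1, ulk1 to ulk3, becn1, tfeb and tfe3. Of 26529 genes in the table, 75 symbols matched, and the 65 with a mean of at least 0.5 CPM (counts per 1000000 counts of a library) over the 12 libraries were kept. The 65 hold 18 subunits of the vacuolar proton pump (V-ATPase), 14 cathepsins, 3 lysosomal membrane glycoproteins, 28 autophagy genes (the machinery of autophagosome formation and the receptor sqstm1) and 2 transcription factors. The 2 genes just inside the limit were ctse, with a mean of 1.27 CPM, and atp6v0e2, with 1.69. Ctse passed only through the T3 libraries, with a mean of 0.0742 CPM over the other 9. The 2 just outside were atp6v1al, with 0.28, and atp6v1b1, with 0.11. The other 8 left out were ctsg, map1lc3c, atp6ap1l, atp6v0a4, atp6v1c2, atp6v1fnb, atp6v1g2 and atp6v1g3.

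The 12 libraries came from livers of wild-type Xenopus tropicalis tadpoles of the same parents, in 4 groups of 3. The T3 group was treated with 10 nM triiodothyronine, the active thyroid hormone, for 18 h at stage 54. The st54, st61 and st66 groups were untreated tadpoles at stages 54, 61 and 66. Stage 54 is a premetamorphic tadpole, stage 61 lies in metamorphic climax and at stage 66 the tail is gone. The labels call the 3 samples of a group biological replicates from different tadpoles, and do not say whether livers were pooled. The p-values therefore rest on the spread between samples within groups, which may differ from the variation between single tadpoles. In the main fit this spread was estimated over all 12 libraries together, not only over the groups compared. The T3 libraries, which varied least, thus took part in the p-values of comparisons without them.

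Lysosomes are acidic compartments in which hydrolases break down protein, lipid and sugar chains. The V-ATPase acidifies them: its V0 sector is a proton channel in the membrane, and its V1 sector hydrolyses ATP to drive it. In autophagy, ULK kinases and the Beclin complex start a membrane sac, ATG9 and ATG2 proteins supply its lipid, and conjugation enzymes attach ATG8 proteins (the LC3 and GABARAP families) to it before it fuses with lysosomes. TFEB and TFE3 are related transcription factors that switch on many of these genes when they enter the nucleus. The frog is remodelled from larva to adult under thyroid hormone, with death and replacement of larval cells in many organs. Roles given below are those known from mammals and yeast.

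Library totals ran from 7928459 to 39536147 counts, and all 65 genes passed the filter on low counts, as did 15102 genes in all. Levels are given as CPM with scaled library sizes, and n = 3 libraries a group throughout. The 3 T3 libraries were much more alike than any other group, with a biological coefficient of variation of 2.57%, against 33.5% in st54, 23.9% in st61 and 40.3% in st66. Chi-square per gene between T3 libraries was 1.97 to 5.46, and between libraries of the other groups 14.0 to 171. In st66, ribosomal protein genes took 16.5% and 16.8% of counts in replicates 2 and 3 and 7.94% in replicate 1. They took 6.89% to 7.60% in T3, below every library of st54 (8.83% to 12.9%) and st61 (8.41% to 10.8%). Hepatocyte markers were present in every library, with a summed level between 42700 and 105500 CPM over 13 genes. Thrb, the hormone-induced receptor gene, had 24.3 ± 0.35 CPM in T3 livers and 1.02 ± 0.55 CPM in st54. Ribosomal protein share and replicate spread stand beside every comparison below, and their part in the results was not tested.

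**Figure D1:**
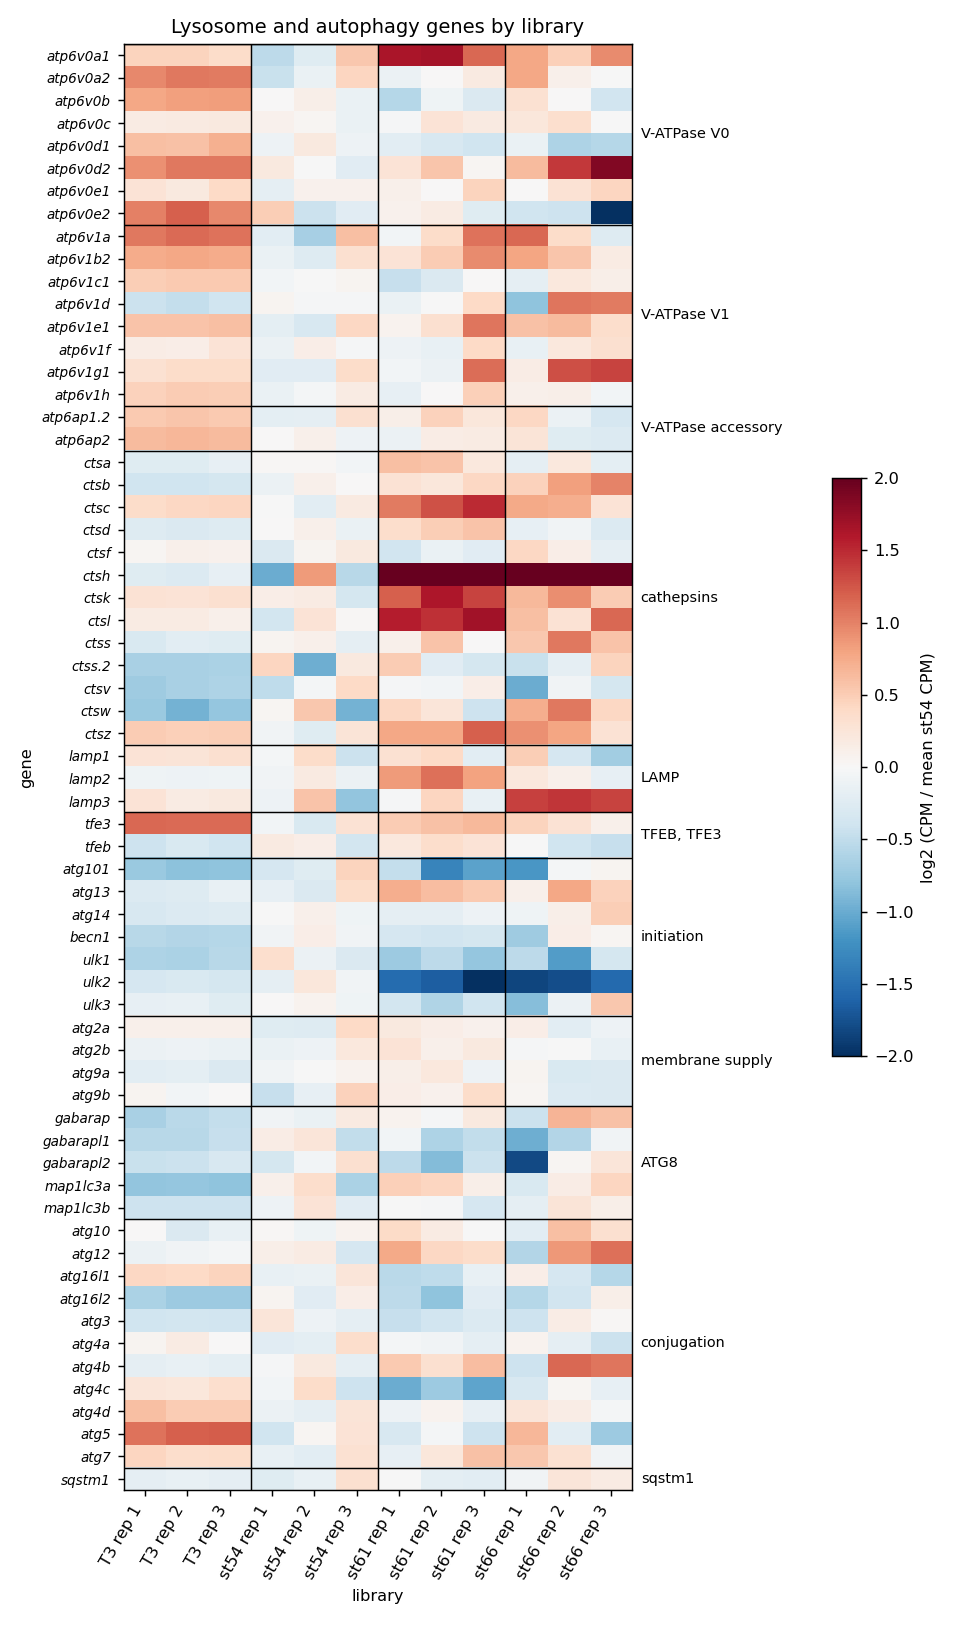
Each cell is 1 gene (rows, grouped by role) in 1 library (columns, by group). Its colour is log2 of the CPM divided by that gene's mean CPM in st54. Ctse is not drawn. The T3 columns look alike within their group, whereas st66 replicate 1 differs from st66 replicates 2 and 3.

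Together the 65 genes took between 0.494% and 0.647% of counts in a library. Per kilobase of transcript, the highest mean levels over the 12 libraries were those of ctsv (389 CPM per kb), ctsb (343), gabarap (224) and ctsc (197). The lowest were those of ctse (0.574 CPM per kb) and atg5 (1.44). The 14 cathepsins summed to 1996 ± 40.1 CPM in T3 livers, 2334 ± 256 in st54, 3263 ± 177 in st61 and 2942 ± 338 in st66 (mean ± SD). The 18 V-ATPase genes summed to 1341 ± 19.0 CPM in T3 livers, 969 ± 97.0 in st54, 1171 ± 182 in st61 and 1214 ± 60.7 in st66. The 28 autophagy genes summed to 1261 ± 12.8 CPM in T3 livers, 1603 ± 61.0 in st54, 1419 ± 83.8 in st61 and 1523 ± 328 in st66.

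As a whole the set was called at shares near those of all genes. Calls are genes whose p, from the quasi-likelihood test of edgeR and adjusted by Benjamini and Hochberg's method over all 15102 genes, was under 0.05. For st61 vs st54, 12 of 65 (18.5%) were called, against 18.9% of all genes tested. For st66 vs st61 it was 7 (10.8%, against 10.0%), and for st66 vs st54 it was 8 (12.3%, against 13.7%). For T3 vs st54 it was 12 (18.5%, against 17.0%), and for T3 vs st61 it was 25 (38.5%, against 33.2%). Both T3 counts include ctse, which is in the set only through its T3 level. Without it, 10 of 64 were higher and 1 lower for T3 vs st54, and 12 higher and 12 lower for T3 vs st61. The median log2 fold change over the 65 genes was 0.10, 0.04, 0.09, 0.07 and -0.04 in these 5 comparisons, in the order given, and -0.03, 0.05, 0.05, -0.05 and 0.00 over all genes. Of the 65, 32 were called at least once, ctse among them, and 33 never. The matching shares over all genes are not given here.

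**Figure D2:**
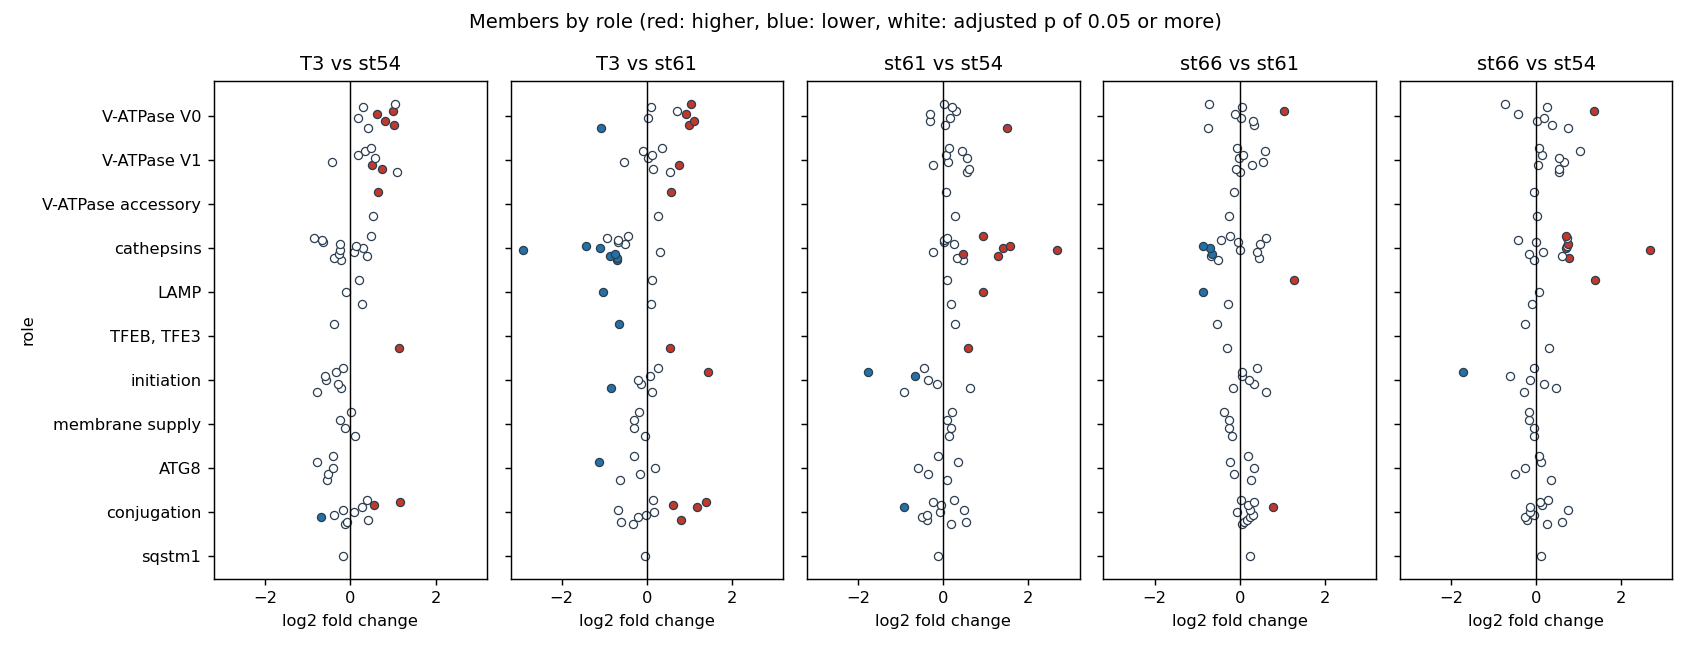
Each point is 1 of the 65 genes, placed by role (vertical axis) and log2 fold change (horizontal axis) in each comparison. Ctse is not drawn. Red points were called higher, blue points lower, and white points had an adjusted p of 0.05 or more. The red cathepsins of st61 vs st54 and the red V-ATPase genes of T3 vs st54 stand in different rows.

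At the climax of metamorphosis, st61 vs st54, 6 of 14 cathepsins rose and 2 of the 3 ULK kinases, which start autophagy, fell. Of 65 genes, 9 rose and 3 fell, with 10.0% of all genes called higher and 8.85% lower. Cathepsins were 6 of the 9 that rose: ctsk, ctsl, ctsh, ctsc, ctsz and ctsd, out of 14, with none lower. The other 3 were the V-ATPase subunit atp6v0a1, the membrane glycoprotein lamp2 and the transcription factor tfe3. The 3 that fell, ulk1, ulk2 and atg4c, all belong to the 28 autophagy genes, of which none rose.

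Ctsh, an aminopeptidase of the papain family, showed the widest difference: 47.8, 53.1 and 36 CPM in the 3 st61 libraries, against 3.57, 12.8 and 4.84 CPM in st54. It was 6.35-fold higher in st61 (log2 2.67 ± 0.42 SE, adjusted p = 0.0013). Every st61 library lay above every st54 library, although st54 replicate 2 was well above the other two. Ctsl, an endopeptidase that degrades much of the protein reaching the lysosome, had 32.4, 30.2 and 35.1 CPM in st61, against 8.48, 13.2 and 11.2 CPM in st54. The groups did not overlap, and the ratio was 2.98-fold (log2 1.57 ± 0.22 SE, adjusted p = 0.000552). Ctsh and ctsl lie close together on chromosome 3, at 95242504 to 95254064 and 95218555 to 95224163 in the deposited table's coordinates, which equal those of the UCB_Xtro_10.0 annotation. An exon of ctsl shares 778 bases with hykk on the other strand, and whether counting used strand is not given in the sources used here. Hykk was not called in any comparison, with 13.7 ± 3.39 CPM in st61 and 16.4 ± 7.95 CPM in st54.

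Ctsk, a collagen-cleaving protease best known from bone-resorbing osteoclasts, had 53.7, 72.3 and 60.1 CPM in st61, against 25.8, 26.2 and 18.4 CPM in st54. That is 2.64-fold higher, with no overlap (log2 1.4 ± 0.18 SE, adjusted p = 0.000367). Of the osteoclast markers, 1 of 4 tested rose and 1 fell; dcstamp and ocstamp, which serve fusion of these cells, reached at most 0.338 and 0.0475 CPM in any library. The list summed to between 141 and 149 CPM in st61 and between 132 and 161 in st54. Ctsc, the dipeptidyl peptidase that activates serine proteases of immune cell granules, was the most abundant of the 6, at 630.2, 741 and 860.3 CPM in st61, against 306, 266 and 349.6 CPM in st54. It rose 2.42-fold (adjusted p = 0.00132). The carboxypeptidase ctsz had 184, 184 and 245 CPM in st61, against 102, 91.3 and 129 CPM in st54, and rose 1.9-fold (adjusted p = 0.00973). The aspartic protease ctsd moved least, with 191, 209 and 223 CPM in st61, against 151, 161 and 137 CPM in st54, a ratio of 1.39 (adjusted p = 0.0411). In all 3 of these genes the lowest st61 library lay above the highest st54 library, as in 17.6% of all genes. Ctsb, the cathepsin with the second highest level per kilobase, averaged 704 ± 46.1 CPM in st61 and 566 ± 45.1 CPM in st54 and was not called (adjusted p = 0.286).

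Lamp2, a heavily glycosylated membrane protein that takes part in fusion of autophagosomes with lysosomes, had 297, 351 and 287 CPM in st61, against 156, 185 and 151 CPM in st54. It rose 1.9-fold (log2 0.93 ± 0.17 SE, adjusted p = 0.00291), with wide separation of the groups. Its relative lamp1 averaged 229.7 ± 48.6 CPM in st61 and 202 ± 54.9 CPM in st54 and was not called (adjusted p = 0.743). Of the 18 V-ATPase genes only atp6v0a1 was called. This isoform of the subunit that anchors the pump in its membrane had 103, 105 and 73.9 CPM in st61, against 23.1, 28.2 and 48.5 CPM in st54. The difference was 2.84-fold (log2 1.50 ± 0.26 SE, adjusted p = 0.00217), and st54 replicate 3 was the closest to the st61 range. Atp6v0c, which forms the proton-carrying ring, averaged 157 ± 15.9 CPM in st61 and 141 ± 10.6 in st54 (adjusted p = 0.57). Atp6v1a, the catalytic subunit, averaged 58.6 ± 23.9 CPM in st61 and 40.3 ± 18.4 in st54 (adjusted p = 0.394).

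Ulk2, a kinase that starts autophagosome formation, was the member with the smallest adjusted p at climax. It had 40.7, 37.8 and 24.8 CPM in st61, against 104, 138 and 112 CPM in st54. All 3 st61 libraries were far below the st54 range, a 3.42-fold lower level (log2 -1.77 ± 0.20 SE, adjusted p = 0.00014). Ulk1, the other main kinase of this step, had 30.9, 35.5 and 29.7 CPM in st61, against 64.2, 47 and 41.7 CPM in st54, 1.59-fold lower (adjusted p = 0.046). Atg4c, a protease that trims ATG8 proteins, had 8.06, 9.73 and 7.73 CPM in st61, against 15.4, 20.7 and 12.1 CPM in st54, 1.89-fold lower (adjusted p = 0.00797). Neither gene's groups overlapped, as in 12 of the 65 members, where every st61 library lay below every st54 library. The share over all genes in that direction is not given here. The remaining kinase, ulk3, was not called (adjusted p = 0.282). Other central autophagy genes were not called: becn1 averaged 44.2 ± 0.700 CPM in st61 and 56.5 ± 4.74 in st54 (adjusted p = 0.247). Atg5 averaged 3.77 ± 0.528 CPM in st61 and 4.47 ± 1.01 in st54 (adjusted p = 0.66). The ATG8 genes map1lc3b and gabarap had adjusted p of 0.701 and 0.865. The receptor sqstm1, which carries ubiquitin-tagged cargo into autophagosomes, averaged 166 ± 13.2 CPM in st61 and 182 ± 40.3 in st54 (adjusted p = 0.69).

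Both transcription factors had higher values in every st61 library than in every st54 library, as did 17.6% of all genes. Tfe3 had 75, 79.1 and 82.5 CPM in st61, against 50.8, 42.3 and 64.5 CPM in st54, 1.5-fold higher (adjusted p = 0.0326). Tfeb had 17.8, 19.6 and 18.6 CPM in st61, against 17.4, 16.9 and 11.9 CPM in st54, and was not called (adjusted p = 0.333). Of the 12 calls of this comparison, 9 held in each of 21 alternative fits; ctsd, tfe3 and ulk1 did not. The calls of these 3 were lost, with an adjusted p between 0.0578 and 0.18, without any 1 library of st61 or T3 or st54 replicate 1 or 2. Leaving out st66 replicate 2 gave ctsd an adjusted p of 0.0517, and leaving out replicate 3 of st54 gave 0.0585. Without st66 replicate 1, the counts were 14 higher and 6 lower.

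**Figure D3:**
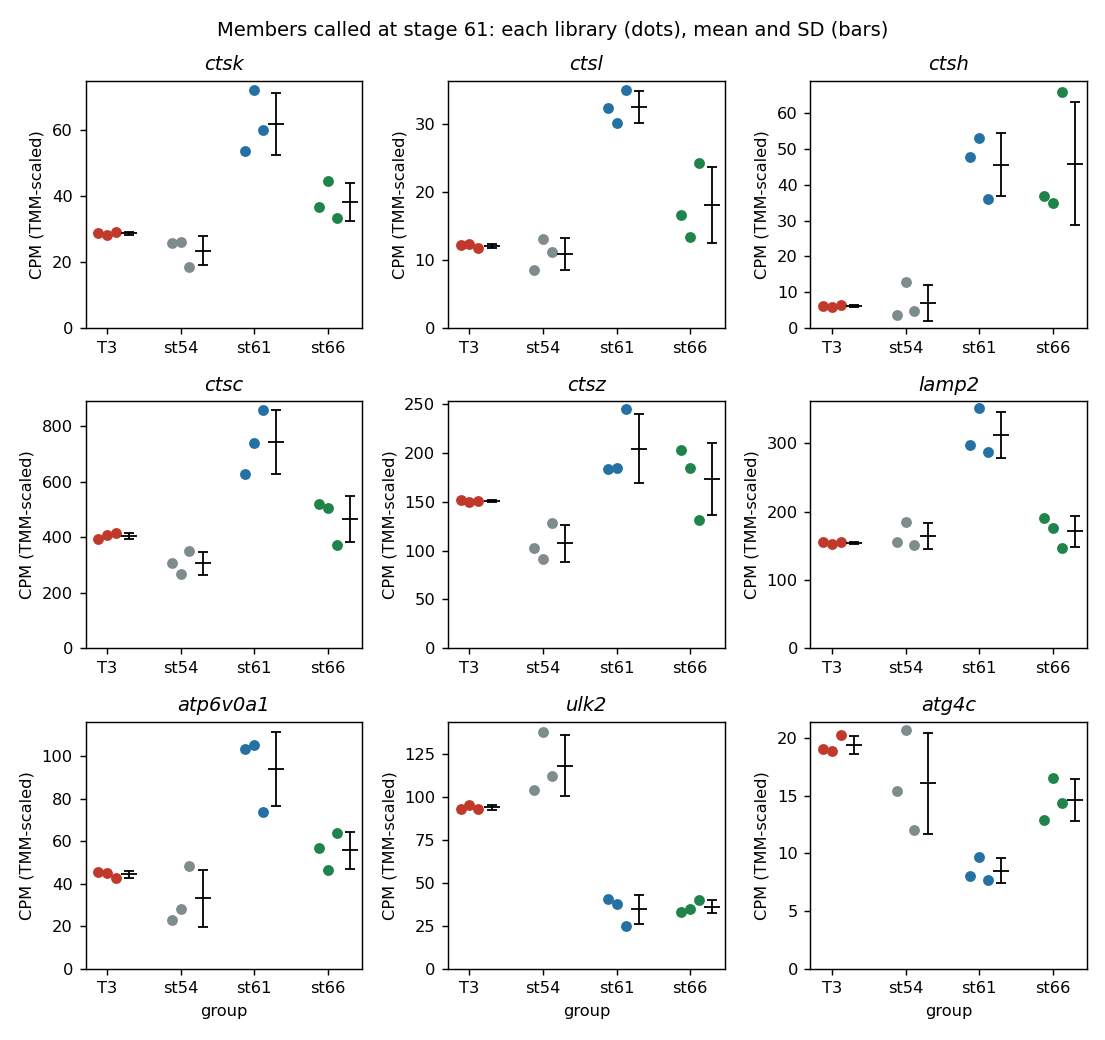
Dots are single libraries and bars the mean with SD, in CPM (vertical axes, from 0), by group (horizontal axes). Shown are 9 of the 12 genes called in st61 vs st54, those whose calls held in every alternative fit. Ctsd, tfe3 and ulk1 are not drawn. Ctsk, ctsl and lamp2 stand highest in st61, ctsh is high in st61 and st66, and ulk2 is low in st61 and st66.

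Of 43 lysosomal hydrolases and activators listed beside the cathepsins, 19 (44.2%, against 10.0% of all genes) rose in st61, 0 fell and 24 were not called, with a median log2 fold change of 0.57, against -0.03 for all genes. Acp5, among the 43, is also an osteoclast marker. The sugar-cleaving glb1, a beta-galactosidase, had 40.1 ± 6.50 CPM in st61 and 9.46 ± 2.20 CPM in st54, 4.26-fold higher (adjusted p = 8.81e-05). The beta-glucuronidase gusb had 104 ± 11.0 CPM in st61 and 34.6 ± 4.40 CPM in st54, 3.01-fold higher (adjusted p = 0.000179). Naglu, which acts on heparan sulfate, had 97.9 ± 12.8 CPM in st61 and 35.8 ± 4.60 CPM in st54, 2.73-fold higher (adjusted p = 0.000323). By contrast, of 40 genes of lysosomal membrane, transport and sorting only ctns (2.5%) rose, while mfsd8 and tmem192 (5%, against 8.85% of all genes) fell. Ctns, the cystine exporter, had 50.1 ± 4.10 CPM in st61 and 22.2 ± 6.34 CPM in st54 (adjusted p = 0.0231). Mfsd8 had 7.81 ± 1.24 CPM in st61 and 23.3 ± 4.20 CPM in st54 (adjusted p = 0.000876), and tmem192 had 13.6 ± 0.23 CPM in st61 and 18.1 ± 0.64 CPM in st54 (adjusted p = 0.0361). Of 38 other autophagy genes 1 rose (2.63%) and 2 fell (5.26%). Nrbf2, of the Beclin complex, rose 1.91-fold (adjusted p = 0.0123); retreg1, a receptor for autophagy of the endoplasmic reticulum, fell to 16.8 ± 0.62 CPM in st61, against 36.6 ± 8.42 CPM in st54 (adjusted p = 0.00141); and sesn2 fell 1.46-fold (adjusted p = 0.026). Of 31 genes of mTORC1 and TFEB control, 2 rose and 2 fell (6.45% each), among them deptor, an inhibitor of the mTOR kinase, at 25.4 ± 3.28 CPM in st61 and 59.1 ± 5.04 CPM in st54 (adjusted p = 0.000308).

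Markers of other cell types moved in the same comparison. In RNA of whole livers, fewer cells of a type and less RNA per cell cannot be told apart. Connective tissue markers rose in 9 of 12, and their sum was between 1806 and 2914 CPM in st61, against 337 to 637 CPM in st54. Endothelial markers rose in 3 of 11, with sums between 1914 and 3010 CPM in st61, against 805 to 1447 in st54. No macrophage marker of 13 tested was called, and their sums overlapped, at 821 to 1094 CPM in st61 and 647 to 1333 CPM in st54. Exocrine pancreas markers, 6 of 13 higher and 2 lower, summed to 281 to 2828 CPM in st61 and 340 to 2502 CPM in st54. Hepatocyte markers, 2 of 13 higher and 2 lower, summed to 76890 to 92580 CPM in st61, above the 64400 to 65770 CPM of st54. Red blood cell markers, 2 of 10 higher and 1 lower, summed to 10760 to 11070 CPM in st61 and 4746 to 9260 CPM in st54. All markers of these 6 lists that the table holds had counts in at least 1 library, and their part in the lysosomal results was not tested.

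At the end of metamorphosis, st66 vs st61, RNA of a lysosomal membrane protein and 3 proteases was lower, and a different LAMP gene was higher. Of 65 genes 3 were higher (4.62%, against 5.75% of all genes) and 4 lower (6.15%, against 4.28%). Both shares were near those of all genes, and no call held in every alternative fit given below. The 4 lower were lamp2, ctsd, ctsl and ctsk, and the 3 higher were lamp3, atp6v0d2 and atg4c. Lamp2 had 190.1, 177 and 147 CPM in the st66 libraries, all below its st61 values given above, 1.82-fold lower (log2 -0.87 ± 0.17 SE, adjusted p = 0.00919). Ctsd had 133, 142 and 124 CPM in st66, 1.56-fold below st61 (adjusted p = 0.0188). Ctsl had 16.6, 13.3 and 24.3 CPM in st66, 1.8-fold below st61 (adjusted p = 0.0315), and st66 replicate 3 was the closest to the st61 range. Ctsk had 36.6, 44.8 and 33.4 CPM in st66, 1.62-fold below st61 (adjusted p = 0.0339). None of these groups overlapped, but 13 of the 65 members had every st66 library below every st61 library. The share over all genes is not given here.

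Lamp3, a LAMP protein known from mature dendritic cells and lung epithelium, was nearly equal in the 3 st66 libraries. It had 31.3, 32.6 and 30.9 CPM in st66, against 11.9, 16.3 and 10.9 CPM in st61 and 11.3, 18 and 7.05 CPM in st54. It was 2.42-fold higher than in st61 (log2 1.28 ± 0.28 SE, adjusted p = 0.016) and 2.58-fold higher than in st54 (adjusted p = 0.0076). Atp6v0d2, an isoform of the pump's d subunit abundant in osteoclasts and kidney, had 5.24, 8.95 and 12.1 CPM in st66, against 4.06, 4.94 and 3.47 CPM in st61 and 3.88, 3.36 and 2.87 CPM in st54. The st66 libraries lay above all of those but spread widely, and the ratios were 2.07-fold to st61 (adjusted p = 0.0388) and 2.55-fold to st54 (adjusted p = 0.00942). Raw counts behind the st66 values were 118, 53 and 81. Atg4c had 12.9, 16.6 and 14.4 CPM in st66, 1.71-fold above st61 (adjusted p = 0.0351), and was not called between st66 and st54 (adjusted p = 0.683).

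Against the premetamorphic liver, st66 vs st54, 7 genes were higher (10.8%, against 8.23% of all genes) and 1 lower (1.54%, against 5.48%). The lower one was ulk2, at 33.1, 34.6 and 40.1 CPM in st66, 3.28-fold below st54 with no overlap (log2 -1.71 ± 0.20 SE, adjusted p = 0.000264). It was not called between st66 and st61 (adjusted p = 0.884). Of the higher ones 5 were cathepsins. Ctsh had 36.9, 35 and 65.8 CPM in st66, 6.37-fold above st54 (log2 2.67 ± 0.43 SE, adjusted p = 0.00199). Ctsb, a protease with both endopeptidase and carboxypeptidase activity, had 776, 994 and 1132 CPM in st66, against 519, 609 and 569.5 CPM in st54, 1.71-fold higher (adjusted p = 0.0184). Ctss, a cathepsin of antigen-presenting cells, had 256, 367 and 262 CPM in st66, against 184, 189 and 157 CPM in st54, 1.67-fold higher (adjusted p = 0.0346). A related gene, ctss.2, lies on the same chromosome, and reads could have been split between them; ctss.2 had 69.3 ± 22.8 CPM in st66 and 69.8 ± 30.5 CPM in st54 and was not called (adjusted p = 0.991). Ctsk was 1.63-fold above st54 (adjusted p = 0.0263). Ctsz, at 203, 185 and 132 CPM in st66, was 1.61-fold above st54 (adjusted p = 0.0487).

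The stage 66 values rest on libraries that differ from one another. Of the 63 members averaging 1 CPM or more in st66, 11 were at least 1.5-fold higher in both replicates 2 and 3 than in replicate 1, and 4 were at least 1.5-fold lower in both. The other 48 were neither. The 11 were shorter, with a median length of 1554 bases, and the 4 lower ones, atg5, atp6v1a, lamp1 and atp6v0a2, had a median of 4062 bases. The ATG8 gene gabarapl2, of 837 bases, had 35.5 CPM in replicate 1, and 128 and 148 CPM in replicates 2 and 3. Atp6v1d, of 1070 bases, had 37.9, 139 and 136 CPM in the 3 libraries. Atp6v1a, of 4165 bases, had 89.1, 51.7 and 33.9 CPM. Over all genes tested, the median log2 fold change for st66 vs st61 was 0.38 for 1256 genes of up to 1000 bases and -0.16 for 4104 genes of over 4000 bases. For st66 vs st54 these medians were 0.16 and -0.05. Whether length or RNA quality took part in these values was not tested.

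**Figure D4:**
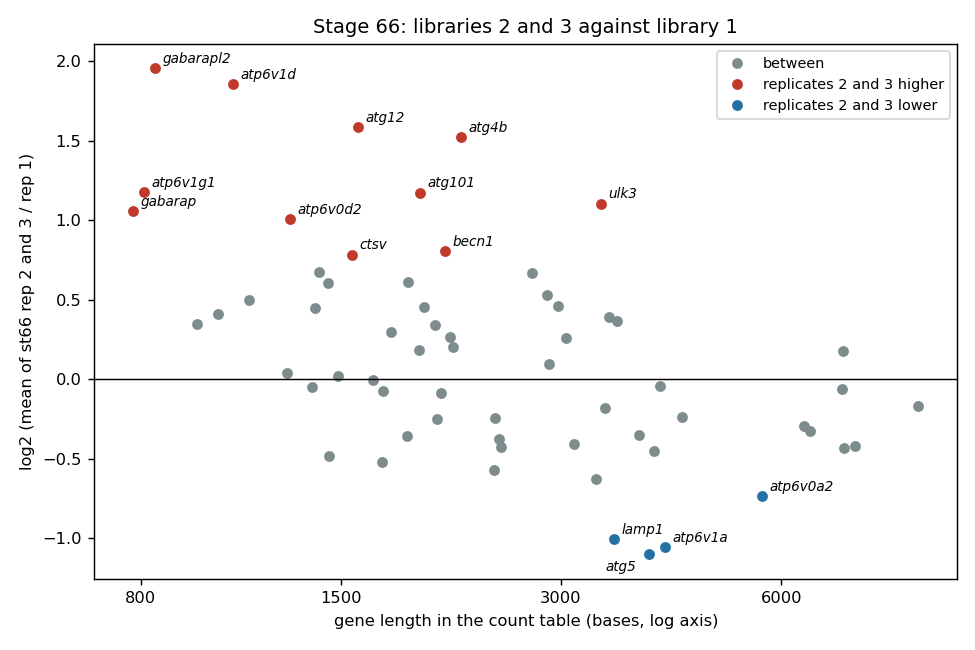
Each point is 1 gene, by its length in bases (horizontal, log axis) and the log2 ratio of the mean of st66 replicates 2 and 3 to replicate 1 (vertical). The highest points are short genes, gabarapl2 and atp6v1d, and the lowest points are atg5, atp6v1a and lamp1.

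Counts of calls at stage 66 moved with single libraries. Without st66 replicate 1 there were 13 higher and 7 lower for st66 vs st61, and 13 higher and 2 lower for st66 vs st54. For st66 vs st61, leaving out any 1 library other than st54 replicate 1 or 2 moved a count by over 1.5 times, within 0 to 13 higher and 1 to 7 lower. No call of st66 vs st61 held in all 21 alternatives, and lamp2 was lost in only 1, the fit of these 2 groups alone. Atg4c and atp6v0d2 were lost without any 1 library of st61 or T3, or without st66 replicate 2 or 3, and atp6v0d2 also without st54 replicate 2 (adjusted p 0.0516 to 0.131). Ctsl was lost without any 1 library of st61 or T3 or without st66 replicate 2, ctsk without st61 replicate 2 or 3, st66 replicate 3 or any 1 T3 library, ctsd without st61 or st66 replicate 3, and lamp3 without st61 replicate 1 or 3 (0.0555 to 0.105). For st66 vs st54, ulk2 and ctsh held in all 21. There the count of higher genes was 3 without st54 replicate 1 and 4 without st66 replicate 2, with ctsb, ctsk, ctss and ctsz at adjusted p between 0.0516 and 0.14. Ctsb was also lost without st66 replicate 3 (0.0589), ctss without st54 replicate 2 or 3 or any 1 T3 library (0.062 to 0.073), and ctsz without any 1 T3 library, st61 replicate 1 or 2, st66 replicate 1 or st54 replicate 2 (0.0633 to 0.163). Without st54 replicate 3 the count of lower genes was 2.

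The regulators tfe3, tfeb and ulk1 were not called in either stage 66 comparison. Tfe3 had 71.8, 64.4 and 56.6 CPM in st66 (adjusted p = 0.293 to st61 and 0.292 to st54), and tfeb had 15.3, 11.7 and 11.2 CPM (adjusted p = 0.0791 and 0.371). Ulk1 had 35.6, 23.5 and 39.9 CPM (adjusted p = 0.921 to st61 and 0.0746 to st54). Lamp1, sqstm1, becn1, atg5, map1lc3b, gabarap, atp6v0c and atp6v1a had adjusted p of 0.388 or more in both. Against st61, ctsb had an adjusted p of 0.139, and against st54, ctsl had 0.0505, ctsd 0.495 and lamp2 0.864. Of the 43 hydrolases, 1 was higher (2.33%, against 5.75% of all genes) and 10 lower (23.3%, against 4.28%) in st66 than in st61. Relative to st54, 5 were higher (11.6%, against 8.23% of all genes) and 1 lower (2.33%, against 5.48%). Glb1 had 20.8 ± 5.03 CPM in st66, against 40.1 ± 6.50 CPM in st61 (adjusted p = 0.0189) and 9.46 ± 2.20 CPM in st54 (adjusted p = 0.00489). Scpep1, gusb and naglu had the smallest adjusted p of the 10, at 1.86-fold, 2.08-fold and 2.03-fold lower than in st61. The 10 became 0 when st66 and st61 alone were fitted, 20 without st66 replicate 1, and 4 to 6 without any 1 library of st61 or T3, or without st66 replicate 2 or 3. The only macrophage marker called was c1qa, at 158 ± 41.9 CPM in st66, against 89.8 ± 7.58 CPM in st61 and 89.1 ± 19.4 CPM in st54 (adjusted p = 0.0393 and 0.0294). Connective tissue markers were higher in st66 than in st54 in 8 of 12, and summed to 1195 to 1868 CPM in st66. Pigment cell markers were 2 of 5 higher in st66 against either stage. They summed to 125 to 240 CPM in st66, against 26.2 to 31.9 CPM in st61 and 10.4 to 35.4 CPM in st54. Most of that sum was 1 gene, gpnmb, which reached 228 CPM in 1 library. Mitf reached 14.8 CPM, and every other marker of the list at most 5.99 CPM. Over the 5 tested, the median log2 fold change was -0.02 for st66 vs st54 and 1.41 for st66 vs st61. Exocrine pancreas markers were 6 of 13 higher and 5 lower in st66 than in st54, and 0 of 13 were called against st61. Endothelial markers were 3 of 11 lower in st66 than in st61, with sums of 450 to 1227 CPM in st66 and 1914 to 3010 CPM in st61. Hepatocyte markers were 3 of 13 higher and 2 lower in st66 than in st54, with overlapping sums. The part of these cell types in the results was not tested.

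After 18 h of hormone, T3 vs st54, the genes that rose were mostly parts of the proton pump and not proteases. Of 65 genes, 11 rose and 1 fell, with 9.47% of all genes called higher and 7.55% lower. V-ATPase genes were 7 of the 11, out of 18, with none lower: atp6v0b, atp6v0a2, atp6ap2, atp6v0d1, atp6v0d2, atp6v1b2 and atp6v1c1. The others were ctse, tfe3, atg5 and atg4d. Ctse had entered the set through its T3 level, so its call was favoured by the rule, and without it 10 of 64 rose (15.6%). The gene that fell was atg16l2. Of the 18 pump genes, 17 had a positive fold change, atp6v1d being the exception, and in 15 every T3 library lay above every st54 library, as in 26.5% of all genes.

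In the V0 sector, atp6v0b, a subunit of the proton-carrying ring, had 46.3, 47.8 and 48.5 CPM in T3 livers, against 27.3, 29.2 and 24.7 CPM in st54. It rose 1.75-fold (log2 0.81 ± 0.18 SE, adjusted p = 0.0155). Atp6v0a2, an isoform of the anchoring subunit found in Golgi and endosomes, had 15, 16.1 and 15.8 CPM in T3, against 5.64, 7.06 and 10.4 CPM in st54. It rose 2.04-fold (log2 1.03 ± 0.25 SE, adjusted p = 0.0201). Atp6v0d1, the common d subunit that joins the rotor to the ring, had 158, 156 and 170.5 CPM in T3, against 97.4, 119 and 97 CPM in st54, 1.55-fold higher (adjusted p = 0.029). Its isoform atp6v0d2 had 6.38, 6.97 and 7.01 CPM in T3, 2-fold above the st54 values given above (adjusted p = 0.0324). In each of these 4 genes every T3 library lay above every st54 library, as in 26.5% of all genes. Atp6v0c averaged 160.1 ± 2.05 CPM in T3 and 141 ± 10.6 in st54 (adjusted p = 0.448), and atp6v0a1, the isoform called at climax, averaged 44.5 ± 1.55 in T3 and 33.2 ± 13.4 in st54 (adjusted p = 0.262).

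In the V1 sector, atp6v1b2, one of the ATP-binding subunits, had 113, 115 and 113 CPM in T3, against 61.6, 56.7 and 84.3 CPM in st54, 1.69-fold higher (adjusted p = 0.0425). Atp6v1c1, which regulates assembly of the sectors, had 58.4, 59.7 and 59.5 CPM in T3, against 39.9, 41.4 and 42.9 CPM in st54, 1.43-fold higher (adjusted p = 0.0434). The catalytic atp6v1a had 83.5, 88 and 85.1 CPM in T3, against 34.6, 25.3 and 60.9 CPM in st54. These groups did not overlap either, but st54 varied by over a factor of 2 and the gene was not called (adjusted p = 0.081). Atp6ap2, an accessory subunit also known as the prorenin receptor, had 61.3, 62.7 and 61.3 CPM in T3, against 39.7, 42.4 and 36.8 CPM in st54. It rose 1.56-fold (adjusted p = 0.0267). The other accessory subunit, atp6ap1.2, averaged 169 ± 1.32 CPM in T3 and 116 ± 25.2 in st54 (adjusted p = 0.11). Of the markers of kidney and ionocytes, cells rich in this pump, slc12a1, aqp2, foxi1, slc4a9 and rhcg reached at most 0.164 CPM in any library; slc4a1, which is also a red cell gene, had 178 to 654 CPM.

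**Figure D5:**
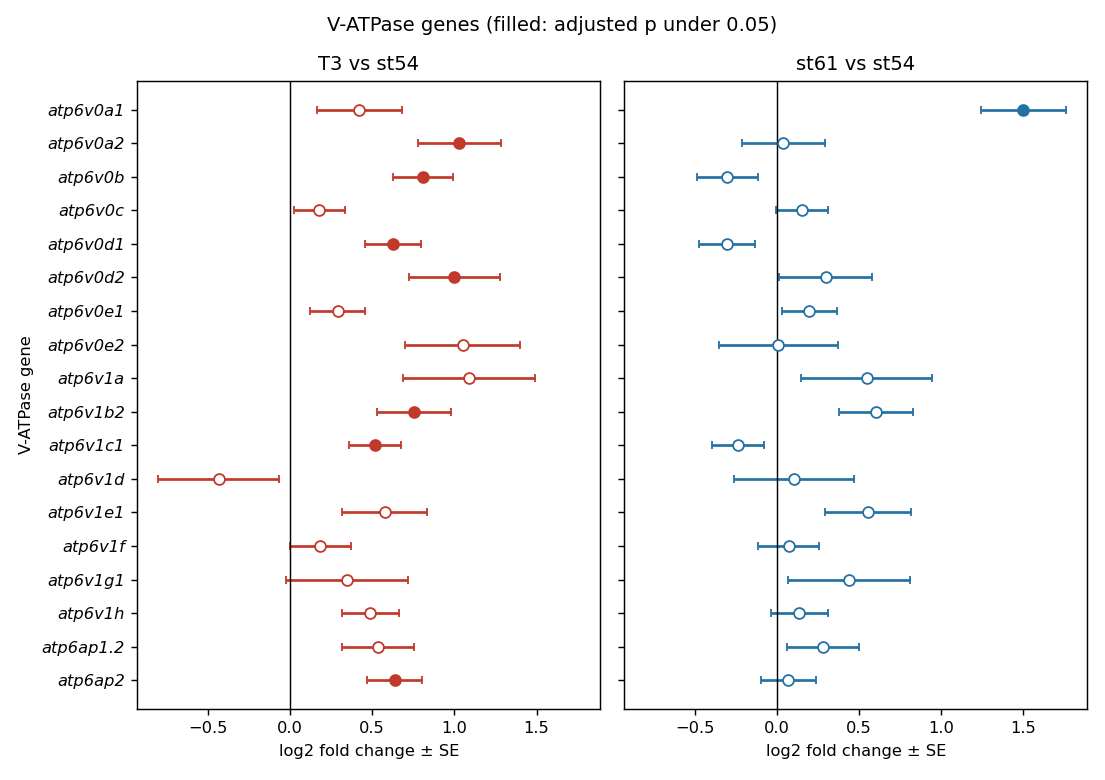
Log2 fold changes with SE (horizontal axes) of the 18 V-ATPase genes (rows) in T3 vs st54 and in st61 vs st54, with filled points for an adjusted p under 0.05. In T3 vs st54, 17 of the 18 points lie right of 0 and 7 are filled; in st61 vs st54 only atp6v0a1 is filled.

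Tfe3, the transcription factor, had 116, 116 and 115 CPM in T3, against 50.8, 42.3 and 64.5 CPM in st54. It rose 2.21-fold (log2 1.14 ± 0.17 SE, adjusted p = 0.00245). Tfeb had 11.5, 12.4 and 11.7 CPM in T3, against 17.4, 16.9 and 11.9 CPM in st54. Those ranges overlapped and the gene was not called (adjusted p = 0.151). Ctse, an aspartic protease of gut and immune cells in mammals, was close to undetected outside the T3 group. Its raw counts were 207, 167 and 113 in the T3 libraries, against 1, 3 and 3 in st54. The ratio of CPM was 37.1, with a 95% interval of 17.9 to 92.7 that covers counting error only. Since ctse is in the set only through these T3 values, the ratio is given as a description, with no test. At 2.16 CPM per kb in T3 livers it remained among the lowest of the 65 genes.

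The conjugation genes moved in both directions. Atg5, a part of the conjugate that helps attach ATG8 to membrane, had 9.46, 10.2 and 10.3 CPM in T3, against 3.4, 4.61 and 5.41 CPM in st54, 2.24-fold higher (log2 1.17 ± 0.30 SE, adjusted p = 0.0242). Atg4d, an ATG8 protease, had 28, 26.2 and 26.3 CPM in T3, against 17, 16.2 and 21.9 CPM in st54, 1.46-fold higher (adjusted p = 0.0319). Atg16l2, a relative of the scaffold atg16l1, had 9.20, 8.66 and 8.60 CPM in T3, against 14.9, 12.3 and 15.7 CPM in st54, 1.62-fold lower (adjusted p = 0.0415). All 3 separated the groups fully. T3 lay fully above st54 in 26.5% of all genes. It lay fully below st54 in 18 of the 65 members, and the share of all genes in that direction is not given here. Ulk2 averaged 93.7 ± 1.42 CPM in T3 and 118 ± 17.8 in st54 and was not called (adjusted p = 0.246), and ulk1 averaged 33.6 ± 0.831 CPM in T3 and 51 ± 11.8 in st54 (adjusted p = 0.0693). Becn1 averaged 38 ± 0.400 CPM in T3 and 56.5 ± 4.74 in st54 (adjusted p = 0.0646). The 5 ATG8 genes summed to 475 ± 15.4 CPM in T3 and 699 ± 68.3 CPM in st54, and 0 of 5 were called. Gabarap, of 781 bases, averaged 119 ± 7.21 CPM in T3 and 174 ± 20.2 in st54 (adjusted p = 0.142). Over all genes of up to 1000 bases the median log2 fold change for T3 vs st54 was -0.33, and over those of more than 4000 bases it was 0.09.

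None of the cathepsins of climax was called after hormone. Ctsh had 6.01, 5.83 and 6.34 CPM in T3, against 3.57, 12.8 and 4.84 CPM in st54 (adjusted p = 0.713). Ctsl averaged 12.1 ± 0.318 CPM in T3 and 10.9 ± 2.35 in st54 (adjusted p = 0.681), and ctsk averaged 28.8 ± 0.442 in T3 and 23.5 ± 4.41 in st54 (adjusted p = 0.276). Ctsb averaged 436 ± 8.41 CPM in T3 and 566 ± 45.1 in st54 (adjusted p = 0.174), and ctsd averaged 125 ± 1.38 in T3 and 149.6 ± 12.1 in st54 (adjusted p = 0.217). Ctsc averaged 406 ± 10.5 CPM in T3 and 307 ± 41.6 in st54, and ctsz averaged 151 ± 1.28 in T3 and 107 ± 19.1 in st54. In ctsc, ctsz and ctsk every T3 library lay above every st54 library, as in 26.5% of all genes. In ctsd every T3 library lay below. Lamp2 averaged 154 ± 1.63 CPM in T3 and 164 ± 18.3 in st54 (adjusted p = 0.742), and lamp1 averaged 246 ± 5.94 in T3 and 202 ± 54.9 in st54 (adjusted p = 0.546). Sqstm1 and map1lc3b had adjusted p of 0.549 and 0.119. The st61 vs st54 and T3 vs st54 comparisons share the st54 libraries, so the sets of calls are not independent of each other.

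The T3 calls depended on single libraries. No call of T3 vs st54 held in all 21 alternatives. Without any 1 T3 library, or without st54 replicate 1, of the 11 calls other than ctse only that of tfe3 remained, with the other 10 at adjusted p between 0.056 and 0.14, and no pump gene was called. Without st54 replicate 2 there were 4 higher genes, 2 of them of the pump. Without st54 replicate 3 there were 17 higher and 4 lower, 12 of the pump, and without st66 replicate 1 there were 16 higher and 10 lower, 11 of the pump. Atg16l2 was lost without any 1 library of st54 or T3, st61 replicate 1 or 2 or st66 replicate 2, and the count of lower genes was 0 without st61 replicate 1 or 2. Atp6v1b2 was lost without st61 replicate 2 or st66 replicate 2, and atp6v1c1 without st61 replicate 2 (adjusted p 0.0517 to 0.0542). With the 3 T3 libraries summed into 1, where the lone T3 library is assumed to vary like the other groups, the counts were 0 and 0. Under upper-quartile scaling the split was 8 higher and 4 lower.

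A number of lysosomal membrane genes outside the pump rose in the T3 livers. Of 40 genes of lysosomal membrane, transport and sorting, 8 rose (20%, against 9.47% of all genes) and 0 fell. Vps39, of the tethering complex that brings vesicles to lysosomes, had 67.9 ± 0.57 CPM in T3 and 20.8 ± 1.21 CPM in st54, 3.26-fold higher (adjusted p = 0.000507). Slc17a5, the sialic acid exporter, had 77.8 ± 0.94 CPM in T3 and 43.4 ± 4.07 CPM in st54 (adjusted p = 0.00613). Mcoln1, a calcium channel of the lysosome, had 51.2 ± 1.90 CPM in T3 and 22.1 ± 2.88 CPM in st54 (adjusted p = 0.0162). The 8 became 2 without any 1 T3 library or st54 replicate 1 or 2, and 14 without st66 replicate 1. Of the 43 hydrolases, 5 rose (11.6%) and 1 fell (2.33%, against 7.55% of all genes), with gusb at 82.4 ± 0.63 CPM in T3 and 34.6 ± 4.40 CPM in st54 (adjusted p = 0.00241). Of 38 other autophagy genes 4 rose (10.5%) and 3 fell (7.89%), both shares near those of all genes, tmem41b, a lipid scramblase, at 64.6 ± 1.14 CPM in T3 and 35.2 ± 8.87 CPM in st54 (adjusted p = 0.011), and retreg1 at 15.8 ± 0.56 CPM in T3 and 36.6 ± 8.42 CPM in st54 (adjusted p = 0.00241). Of 31 genes of mTORC1 and TFEB control 0 rose and 4 fell (12.9%): deptor, ddit4, ppargc1a and fnip2. Deptor had 32.0 ± 0.64 CPM in T3 and 59.1 ± 5.04 CPM in st54 (adjusted p = 0.00497). Ddit4, a stress-induced inhibitor of mTORC1, had 5.72 ± 0.16 CPM in T3 and 68.4 ± 46.6 CPM in st54 (adjusted p = 0.00879), a group that varied widely. Beside these, connective tissue markers were 2 of 12 lower and macrophage markers 2 of 13 lower (c1qa and c1qc), with macrophage sums of 718 to 726 CPM in T3 and 647 to 1333 CPM in st54. Hepatocyte markers were 1 of 13 lower, and their sum was 42700 to 48930 CPM in T3, below the 64400 to 65770 CPM of st54. Red blood cell markers, with 0 of 10 called, summed to 3831 to 4273 CPM in T3 and 4746 to 9260 CPM in st54. The part of these cell types, and of the lower ribosomal protein share in T3, was not tested.

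Set directly against each other, T3 vs st61, 13 genes were higher in the hormone-treated stage 54 liver and 12 lower. These were 20% and 18.5% of the 65, against 16.6% of all genes in each direction. The groups differ in stage as well as in treatment, and these cannot be told apart. The lower genes held 7 of the 14 cathepsins: ctsh, ctsl, ctsk, ctsd, ctsc, ctsa and ctsb. Ctsz, which was called higher at climax, was not called here. Ctsh was 7.52-fold lower in T3 (log2 -2.91 ± 0.43 SE, adjusted p = 0.000575), ctsl 2.7-fold (adjusted p = 0.000705) and ctsk 2.16-fold (adjusted p = 0.00111). Ctsc had 395, 407 and 416 CPM in T3, 1.83-fold below st61 (adjusted p = 0.00744). Ctsd had 126, 123 and 125 CPM in T3, 1.67-fold below st61 (adjusted p = 0.00318). Ctsb had 430.2, 432 and 445 CPM in T3, against 694, 663 and 754 CPM in st61, 1.61-fold lower (adjusted p = 0.0156). Ctsa, the protective protein of lysosomal sialidase, averaged 137 ± 4.16 CPM in T3 and 221 ± 31.8 in st61, 1.61-fold lower (adjusted p = 0.0106). Ctse went the other way, with 1 count in all 3 st61 libraries together and 487 in T3, a ratio of 227 with a 95% counting interval of 40.5 to 8.98e+03, given with no test for the same reason; without ctse, 12 of 64 genes were higher (18.8%).

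Lamp2 had 155, 152 and 155 CPM in T3, 2.02-fold below st61 (adjusted p = 0.0012). In the pump, 6 genes were higher in T3 and 1, atp6v0a1, was lower. Atp6v0b was 2.16-fold (adjusted p = 0.00126), atp6v0d1 1.91-fold (adjusted p = 0.00203), atp6v0a2 1.99-fold (adjusted p = 0.0114) and atp6v1c1 1.69-fold (adjusted p = 0.00421) above st61. Their st61 values were 18.2, 25.6 and 22.1 CPM for atp6v0b and 90.5, 84.1 and 79.6 CPM for atp6v0d1. For atp6v0a2 they were 7.08, 7.74 and 8.75 CPM, and for atp6v1c1 30.1, 33.8 and 41.4 CPM. Atp6v0a1 had 45.4, 45.3 and 42.7 CPM in T3, 2.12-fold below st61 (adjusted p = 0.00852). The 2 anchoring-subunit isoforms, atp6v0a1 and atp6v0a2, were thus called in opposite directions between these groups.

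Among autophagy genes, ulk2 had 93, 95.3 and 92.8 CPM in T3, 2.72-fold above st61 (log2 1.44 ± 0.20 SE, adjusted p = 0.0004), with no overlap. Atg4c had 19.1, 18.9 and 20.3 CPM in T3, 2.28-fold above st61 (adjusted p = 0.0013). Atg5 was 2.64-fold above st61, where it had 3.60, 4.37 and 3.35 CPM (adjusted p = 0.00506). Atg4d was 1.52-fold above st61, where it had 17.1, 19.2 and 16.4 CPM (adjusted p = 0.0105). The scaffold atg16l1 averaged 19.3 ± 0.369 CPM in T3 and 11 ± 1.75 in st61, 1.75-fold higher (adjusted p = 0.00969). Lower in T3 were atg13, which binds the ULK kinases, at 14 ± 0.609 CPM in T3 and 25.3 ± 1.76 in st61 (adjusted p = 0.00857), and map1lc3a, an LC3 gene, at 97.3 ± 1.09 CPM in T3 and 213 ± 28.2 in st61 (adjusted p = 0.00721). Map1lc3a was the only ATG8 gene called in any comparison. The 2 transcription factors were called in opposite directions, tfe3 1.47-fold higher in T3 (adjusted p = 0.0273) and tfeb 1.57-fold lower (adjusted p = 0.0156).

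Of the 25 calls between T3 and st61, that of ulk2 held in all 21 alternatives. That of ctse did too, but it was favoured by the rule for the set and counts as no support. With T3 summed to 1 library, which is then assumed to vary like the other groups, the other 23 were lost, and for 18 of them that was the only alternative that ended the call. Leaving out 1 library of T3 or st61 ended the call of tfe3 in each case (adjusted p 0.0521 to 0.0847), and that of tfeb without T3 replicate 1 or 3 or st61 replicate 2 (0.0563 to 0.0633). Ctsb was lost without any 1 T3 library (0.0579 to 0.0645). Atp6ap2 was lost without any 1 T3 library or st61 replicate 1 (0.066 to 0.0903). Atp6v0e2 was lost without any 1 library of T3 or st61 (0.0796 to 0.122). The count of pump genes higher in T3 was 4 without any 1 T3 library. Without st66 replicate 1, 20 genes were lower. Ulk1, lamp1, sqstm1, becn1, map1lc3b, gabarap, atp6v0c and atp6v1a were not called, with adjusted p between 0.0706 and 0.912. Of the 43 hydrolases 18 were lower (41.9%) and 1 higher (2.33%) in T3, against 16.6% of all genes in each direction. Asah1, the acid ceramidase, was among the lower ones, at 113 ± 1.32 CPM in T3 and 290 ± 39.1 CPM in st61 (adjusted p = 0.000458). Glb1 had 14.3 ± 0.78 CPM in T3 and 40.1 ± 6.50 CPM in st61 (adjusted p = 0.000488). Connective tissue markers were lower in T3 in 10 of 12 and endothelial markers in 4 of 11. Hepatocyte markers were 6 of 13 lower and 2 higher, with sums of 42700 to 48930 CPM in T3, all below the 76890 to 92580 CPM of st61. Exocrine pancreas markers were 6 of 13 lower and 3 higher, and the macrophage markers c1qa and c1qc were lower. Red blood cell markers, 2 of 10 lower and 1 higher, summed to 3831 to 4273 CPM in T3 and 10760 to 11070 CPM in st61. The part of these cell types in the T3 vs st61 values was not tested.

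The 33 genes called in no comparison included much of the core autophagy machinery, and the share of all genes never called is not given here. Among them were all 4 lipid-supply genes (atg2a, atg2b, atg9a and atg9b), 4 of 5 ATG8 genes, becn1, atg14 and atg101, ulk3, and the conjugation genes atg3, atg4a, atg4b, atg7, atg10 and atg12. Also in this set were sqstm1, lamp1, the cathepsins ctsf, ctss.2, ctsv and ctsw, and the pump genes atp6v0c, atp6v0e1, atp6v1a, atp6v1d, atp6v1e1, atp6v1f, atp6v1g1, atp6v1h and atp6ap1.2. Ctsv, the member with the highest level per kilobase, averaged 453 ± 15.5 CPM in T3, 713 ± 222 in st54, 723 ± 54.3 in st61 and 531 ± 160.5 in st66. Its st54 libraries ranged from 502 to 944 CPM. A p that misses the threshold does not show that such genes were equal between groups. Counts were simulated at these library sizes for st61 vs st54, with 200 changed genes. The test recovered 97% of 4-fold changes and 32% of 2-fold changes. Each gene's simulated spread came from 1 trend over expression level, fitted to all 12 libraries with T3 included. The real coefficient of variation was 33.5% in st54 and 23.9% in st61, against 2.57% in T3. The shares recovered may therefore differ for the real counts.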

How the data were processed

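Liver RNA of 12 samples was sequenced, and the authors deposited 1 table of raw read counts per gene with gene lengths and coordinates, per the file headers. Per the submitters' processing notes, cutadapt 3.4 and STAR 2.7.8a were used. Genome build, annotation, strand setting and duplicate removal: not given in the sources used here. Therefore overlapping genes on opposite strands (6 members) and related genes such as ctss and ctss.2 have uncertain values. All 65 symbols, with their coordinates, matched the RefSeq annotation of UCB_Xtro_10.0. Lines of 2 genes, broken over 6 lines, were left out. No promoter or protein sequence was used here, so a planned description of promoter motifs is not reported.

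Counts were scaled by TMM factors, filtered with filterByExpr by group and analysed in R 4.3.3 (edgeR 4.0.16, limma 3.58.1) by 1 quasi-likelihood fit with robust settings over all 12 libraries, with 4 group means and Benjamini-Hochberg adjustment over 15102 genes. A call is an adjusted p under 0.05. No test was run over the list of members. Folds are the fitted ones; levels are CPM, as mean ± SD or per library. The members, the role and pathway lists and the markers were chosen with earlier results of these data known. Genes named were up to 10 called members in each direction by adjusted p, 15 members named in every comparison (tfeb, tfe3, sqstm1, map1lc3b, gabarap, lamp1, lamp2, ctsb, ctsd, ctsl, atp6v0c, atp6v1a, ulk1, becn1 and atg5), and up to 3 called genes of each pathway list. Other members given with values (such as atp6v0a1, ctsh or ulk2 where they were not called, atp6v1d, gabarapl2 and ctsv) were chosen after their values were seen.

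The floor, 3 counts, equalled 0.0759 to 0.378 CPM; floors and counting intervals cover counting error only. Alternatives were other scaling factors, no filter, the 2 compared groups alone, a replicate block, T3 summed to 1 library, st66 replicate 1 alone, each library left out, and DESeq2 1.42.0. The fit was tested on simulated counts of 14908 genes with 200 changed, giving 129 true and 6 false calls.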

Additional observations from a re-analysis of the deposited data

How the results depend on the processing

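Across 21 alternatives, 64 calls of a member in a comparison never changed direction, and 13 of them passed the threshold in every alternative. The 13 include ctse for T3 vs st61, whose call was favoured by the rule for the set. Members named without a call changed sign in 40 of 1197 fits and were called in 49. Leaving out 1 library gave 7 to 14 members higher and 2 to 6 lower for st61 vs st54, 0 to 13 and 1 to 7 for st66 vs st61, 3 to 13 and 1 to 2 for st66 vs st54, 2 to 17 and 0 to 10 for T3 vs st54, and 10 to 14 and 10 to 20 for T3 vs st61. It gave 5 to 7 cathepsins and 13 to 22 hydrolases higher for st61 vs st54, and 0 to 12 pump genes higher for T3 vs st54. Fitting only the 2 groups compared gave 1 higher and 0 lower for st66 vs st61, 1 higher for st66 vs st54, 7 lower for T3 vs st54 and 25 lower for T3 vs st61. With the T3 libraries summed to 1, assumed to vary like the other groups, counts were 0 higher and 1 lower for st66 vs st61, 3 higher for st66 vs st54, 0 and 0 for T3 vs st54 (0 pump genes), and 2 higher and 0 lower for T3 vs st61. With st66 replicate 1 alone, they were 7 lower for st61 vs st54, 1 higher and 7 lower for st66 vs st61, 4 higher and 5 lower for st66 vs st54, and 8 lower (11 pump genes higher) for T3 vs st54. DESeq2 gave 8 lower for st66 vs st61, 3 lower for st66 vs st54 and 5 lower for T3 vs st54. For T3 vs st54, upper-quartile factors gave 4 lower and no low-count filter 0. Where fewer samples are fitted, the spread is estimated on fewer degrees of freedom, and counts both fell and rose in such fits. The cause of these shifts was not tested.

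Replicate numbers did not pair the samples: over 18 same-numbered pairs of libraries, deviations from group means correlated between -0.11 and 0.158, with 1 over 0.1, and a library correlated best with its own number in 10 of 36 checks. With the replicate block, T3 vs st54 gave 5 members higher, 2 of them pump genes; no other count of members named in this section moved by over 1.5 times.

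In the shallowest library 3 counts were worth 0.378 CPM, which limits what can be said of ctse outside T3 livers.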
